A study of Mus musculus with 3 samples.

Results

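Expression of 9 transcription regulators, grouped as factors of the renal stroma and the ureter mesenchyme, was described in cultured embryonic mouse kidneys. They were Foxd1, Tcf21, Meis1, Meis2, Tbx18, Tshz2, Tshz3, Vgll3 and Tfap2b. Each was represented by a probe set annotated to that gene alone, and Tshz2, which has several, by the brightest on average over the arrays. All 9 of 9 were found among 19938 genes. Kidneys of C57BL/6 embryos at embryonic day 11.5 were kept for 48 h on Transwell filters in 1 of 3 media. The media were DMEM with 10% fetal bovine serum (serum), DMEM without serum (serum-free), and serum-free DMEM with retinoic acid, a signalling derivative of vitamin A (retinoic acid). Each medium was measured on 1 array (Affymetrix Mouse Gene 1.0 ST). The media of the serum and serum-free arrays differed by serum, and those of the serum-free and retinoic acid arrays by retinoic acid. Differences between the kidneys behind the arrays cannot be told apart from those of the media. The labels give no retinoic acid dose, embryo sex or number of kidneys behind an array. With 1 array per medium no value has an error or a test, and every difference describes these 3 arrays only.

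The renal stroma is the interstitial connective tissue of the kidney, and its progenitors surround the nephron-forming mesenchyme and send signals to it and to the branching ureteric bud. Stromal cells make retinoic acid and respond to it, and retinoid signalling through the stroma sustains branching of the ureteric bud. The ureter mesenchyme is a neighbouring population around the ureter stalk that gives rise to the smooth muscle of the ureter wall. Foxd1 and Tcf21 are regulators of the kidney stroma, Meis1 and Meis2 are homeodomain partners of HOX and PBX proteins, Tbx18 and Tshz3 act in the ureter mesenchyme, Vgll3 is a cofactor of TEAD factors, and Tfap2b encodes the factor AP-2 beta.

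Levels are log2 probe set intensities. Calls were by size, and a gene was called when its levels were at least 2-fold apart and the larger of them reached 7.12, the median of all gene-level values, used as a floor. Markers of renal stroma and of ureter mesenchyme were checked for presence in the explants. All 7 markers of renal stroma (Foxd1, Tcf21, Meis1, Pdgfra, Pdgfrb, Col1a1 and Col3a1) lay at or above the floor on every array. The same held for all 5 markers of ureter mesenchyme (Tbx18, Tshz3, Bmp4, Acta2 and Ptch1). Of these, Foxd1, Tcf21, Meis1, Tbx18 and Tshz3 are among the 9 regulators themselves, so the check rests on the other 4 stroma and 3 ureter mesenchyme markers. All 7 endothelium and all 6 nephron progenitor markers also reached the floor on every array, so passing it does not single out these tissues. Of the 19938 genes, 10241 reached it on at least 1 array. The summed intensity of the stroma markers was 9127 with serum, 8785 serum-free and 8824 with retinoic acid, and without the regulators 4940, 5034 and 4288 in the same order. That of the ureter mesenchyme markers was 9900 with serum, 5488 serum-free and 5707 with retinoic acid. Acta2, which encodes smooth muscle actin, carried that pattern, and without it the other 4 markers summed to 4431 with serum, 3278 serum-free and 4864 with retinoic acid. Of those 4, Tbx18 and Tshz3 are among the regulators. Bmp4 (-0.26) and Ptch1 (-0.17) were lower with retinoic acid than with serum. Without the regulators, Bmp4, Acta2 and Ptch1 summed to 8341 with serum, 4335 serum-free and 3304 with retinoic acid.

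Markers of other cells in the explants differed between the arrays too. In an explant, fewer cells of a type and less RNA per cell cannot be told apart. The summed intensity of 10 macrophage markers was 2489 with serum, 7716 serum-free and 5608 with retinoic acid. The sum of 6 nephron progenitor markers was 8326, 10177 and 6118 in the same order, with Cited1 (-2.13) and Meox2 (-1.52) called lower and Meox1 called higher with retinoic acid against serum-free. The sum of 9 ureteric epithelium markers was 8107, 4919 and 7970, with Calb1 (2.18) and Ret (9.92 against 8.42) called higher in that comparison. Calb1 alone had intensities of 3257, 848 and 3844. The median difference of the 9 with retinoic acid against serum-free was 0.03, with 5 above 0 and 2 below, among them Gata3 (-0.48) and Krt8 (-0.38). The part of these cells in the values of the 9 regulators was not tested. Xist, the RNA that coats the inactive X chromosome, had levels of 10.84 with serum, 11.48 serum-free and 9.79 with retinoic acid, and the Y-linked gene Eif2s3y was at 8.38, 7.46 and 8.64 in the same order. Differences in embryo sex between the media cannot be told apart from those of the media, and their part in the values below was not tested. Rarb, a retinoic acid receptor gene that is itself induced by the ligand, was at 10.41 with serum, 8.43 serum-free and 11.37 with retinoic acid, so it was highest where retinoic acid had been added.

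The 9 regulators fell into 3 kinds by their values over the media. Vgll3 and Tfap2b were lower with retinoic acid than in either other medium. Tbx18 and Tshz3 were lowest in serum-free medium and highest with retinoic acid. Foxd1, Tcf21, Meis1, Meis2 and Tshz2 differed by 0.45 at most on the log2 scale between any 2 arrays.

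**Figure D1:**
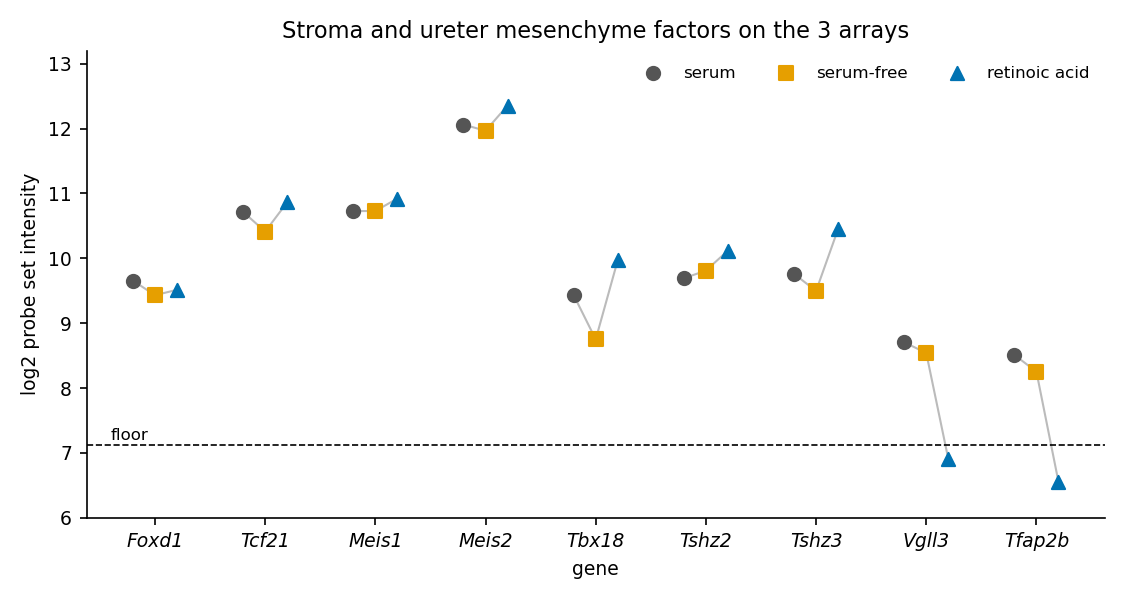
Log2 probe set intensity (vertical axis) of each of the 9 genes (horizontal axis) on the serum, serum-free and retinoic acid arrays, 1 point per array, with the floor of 7.12 as a dashed line. Only the retinoic acid points of Vgll3 (6.91) and Tfap2b (6.56) lie under the floor, and heights of different genes are not comparable because each has its own probes.

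The first comparison asked which of the regulators differed on adding retinoic acid to medium without serum. Of the 9, 1 was at least 2-fold higher (Tbx18), where 1.05% of the 10111 genes that reached the floor were that much higher, and 2 were at least 2-fold lower (Vgll3 and Tfap2b), where 0.613% of those genes were. The difference was above 0 for 7 of the 9 genes and below 0 for 2, with a median of 0.31 against 0.00 over all genes at or above the floor. Of all such genes, 29.5% were above 0 and 35.1% below, and the rest were exactly tied. Differences of all such genes lay between -0.33 and 0.30 from their 5th to their 95th percentile. With the floor raised to the 75th percentile of gene-level values the count of lower regulators was 0, and 1.59% of genes were called in either direction. With the mean of all probe sets of a gene the median of the 9 was 0.19. The genes were chosen with earlier results of these data known, so these counts are a description.

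Tfap2b had the largest difference. AP-2 beta is needed in the distal part of the developing nephron and is also made in neural crest derivatives such as sympathetic neurons. Both sites lie outside the renal stroma and ureter mesenchyme that name the group. Its log2 level was 8.51 with serum, 8.25 serum-free and 6.56 with retinoic acid. The serum and serum-free values lay close together, and the retinoic acid value was far under both and under the floor. With retinoic acid it was 3.24-fold lower than in serum-free medium (-1.70) and 3.88-fold lower than in serum (-1.96). Among the 10111 genes, 7 were lower by at least that much with retinoic acid than in serum-free medium, Tfap2b included. Since the lower value is under the floor, where background takes up more of the signal, the size is uncertain. On the scale of log2(intensity + 32), where low values weigh less, the difference from serum-free medium was -1.42.

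Vgll3 followed the same course. It belongs to the vestigial-like family, whose proteins bind TEAD factors, the DNA-binding partners of YAP. Its level was 8.71 with serum, 8.54 serum-free and 6.91 with retinoic acid. Again both media without added retinoic acid were alike, and the retinoic acid array was the low one. The difference was -1.63, or 3.10-fold lower, against serum-free medium and -1.80, or 3.48-fold lower, against serum. Removing serum alone went with -0.16 for Vgll3 and -0.26 for Tfap2b, both inside the range from the 5th to the 95th percentile of all genes (-0.38 to 0.27).

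The promoters of these genes are shown because their levels moved together. The RefSeq promoter table (build GRCm38.p6) held 1 window for each of the 9 genes, from 250 bases before to 50 after a transcription start, and other starts of a gene are not covered. The 250 bases before the start are given 5′ to 3′ on the gene's strand, chr1:19211804-19212053 (plus strand) for Tfap2b and chr16:65814939-65815188 (plus strand) for Vgll3. Capitals mark the letters CATTCC, a core recognised by TEAD factors, where they occurred.
Tfap2b: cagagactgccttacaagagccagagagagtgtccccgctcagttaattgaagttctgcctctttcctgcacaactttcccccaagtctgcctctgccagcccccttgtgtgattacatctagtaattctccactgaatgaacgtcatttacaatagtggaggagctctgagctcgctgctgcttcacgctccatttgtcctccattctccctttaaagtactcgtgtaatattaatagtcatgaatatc
Vgll3: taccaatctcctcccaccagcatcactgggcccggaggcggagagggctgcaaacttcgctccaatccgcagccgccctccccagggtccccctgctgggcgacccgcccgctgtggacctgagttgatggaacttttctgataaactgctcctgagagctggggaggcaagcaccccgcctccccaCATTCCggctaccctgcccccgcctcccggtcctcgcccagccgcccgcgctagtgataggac

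CATTCC, searched on both strands, stood in the windows of Vgll3 (positions -63 to -58 from the start) and Tshz3, and in 14.7% of the 32851 windows in the table. The core AGGTCA, a hexamer read by retinoic acid receptors, was in 0 of the 9 windows and in 16.3% of all windows. Direct repeats of AGGTCA spaced by 1, 2 or 5 bases were in 0 of the 9 windows and in 0.040%, 0.0091% and 0.0091% of all windows. The CArG box, the site of serum response factor, was in 0 of the 9 and in 1.63% of all windows. These are counts of exact letters in short windows, so other forms of a site were not counted. Direct repeats were so rare over all windows that 0 of 9 says nothing about these genes.

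The gene of AP-2 alpha, a relative of AP-2 beta, was also lower with retinoic acid, at a smaller size. Tfap2a was at 8.73 with serum, 8.89 serum-free and 7.87 with retinoic acid. It was lower with retinoic acid by a log2 difference of -1.02 against serum-free medium and -0.86 against serum. Tfap2c, Tfap2d and Tfap2e were under the floor on every array.

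Neural crest derivatives were measured beside Tfap2b because they express it. Of 7 measured markers, 3 were called lower for retinoic acid against serum-free, namely Dbh (-2.13) and Th (-1.50), which encode enzymes of noradrenaline synthesis, and the chromogranin gene Chga (-1.85). The summed intensity of the 7 was 2706 with serum, 3556 serum-free and 1839 with retinoic acid. Without Gata3, which the ureteric epithelium also expresses, the other 6 summed to 1125, 2116 and 803. Between serum-free medium and serum Dbh was at 1.08, Chga at 1.33 and Gata3 at -0.13, and Tfap2b was at -0.26. Sox10, a marker of neural crest and glia, was under the floor on every array at 6.26. Markers of the early nephron, the other site of Tfap2b, had a summed intensity of 3933 with serum, 2009 serum-free and 2923 with retinoic acid, and Wnt4 (1.42), Lhx1 (1.28) and Dll1 (1.02) were at least 2-fold higher with retinoic acid than in serum-free medium. Of the same list, Pou3f3, a gene of the distal part of the early nephron, was at 7.77 with serum, 7.49 serum-free and 7.15 with retinoic acid, the order of Tfap2b. Jag1 was at -0.10 for retinoic acid against serum-free, and Irx1 was under the floor on every array. The part of either cell type in the values of Tfap2b was not tested.

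Tbx18 was the 1 regulator at least 2-fold higher with retinoic acid than in serum-free medium. This T-box factor marks undifferentiated ureter mesenchyme and is needed for that tissue to form smooth muscle. Its level was 9.43 with serum, 8.75 serum-free and 9.97 with retinoic acid. The serum-free array was lowest, the serum array between, and the retinoic acid array highest. Retinoic acid against serum-free gave 1.22, or 2.33-fold higher, and 1.04% of genes at or above the floor differed by at least as much in either direction. Removing serum gave -0.68, or 1.61-fold lower, the largest such difference of the 9, and the retinoic acid level exceeded that in serum by 0.54.

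Tshz3 encodes a teashirt zinc finger factor required for smooth muscle differentiation in the ureter. It was at 9.76 with serum, 9.50 serum-free and 10.45 with retinoic acid. Its order over the media was that of Tbx18, with a smaller step between serum and serum-free medium. The difference was 0.95, or 1.94-fold, when retinoic acid was added, just short of 2-fold, -0.26 when serum was left out and 0.69 with retinoic acid over serum. Its paralogue Tshz2 was at 9.69 with serum, 9.81 serum-free and 10.12 with retinoic acid, so it too was highest with retinoic acid, but by 0.31 over serum-free medium. A second Tshz2 probe set lay under the floor, from 5.74 to 5.90, and differed by 0.04 in that comparison. Tshz1 was at 9.38 with serum, 9.52 serum-free and 9.63 with retinoic acid.

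The bases before the starts of Tbx18 and Tshz3 are shown because their levels had the same order over the media. Tshz3 was not among the 3 genes nearest to Tbx18. The bases are from chr9:87731261-87731510 (minus strand) and chr7:36697868-36698117 (plus strand) of GRCm38.p6, with CATTCC in capitals.
Tbx18: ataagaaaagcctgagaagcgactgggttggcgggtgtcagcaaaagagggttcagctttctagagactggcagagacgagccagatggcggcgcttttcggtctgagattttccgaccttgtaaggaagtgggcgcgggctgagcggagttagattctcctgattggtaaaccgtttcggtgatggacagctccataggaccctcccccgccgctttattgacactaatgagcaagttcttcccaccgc
Tshz3: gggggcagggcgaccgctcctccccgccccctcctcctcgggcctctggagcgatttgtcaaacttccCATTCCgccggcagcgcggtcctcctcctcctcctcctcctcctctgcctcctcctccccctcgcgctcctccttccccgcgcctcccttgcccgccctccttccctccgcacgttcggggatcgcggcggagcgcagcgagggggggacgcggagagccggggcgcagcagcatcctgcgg

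The Tshz3 window was the richest in G and C of the 9, at 76.0%, against 51.7% for Tbx18, 65.3% for Vgll3, 48.3% for Tfap2b and a median of 52.7% over all windows. Its CATTCC lay at positions -182 to -177 from the start. TGACAG, a core recognised by MEIS factors, was in the windows of Tbx18 (positions 18 to 23 after the start, not printed) and Foxd1, and in 19.2% of all windows. The E-box CAGCTG, the T-box core AGGTGTGA and the AP-2 site GCCNNNGGC were in 0 of the 9 windows and in 16.3%, 1.28% and 16.6% of all windows.

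**Figure D2:**
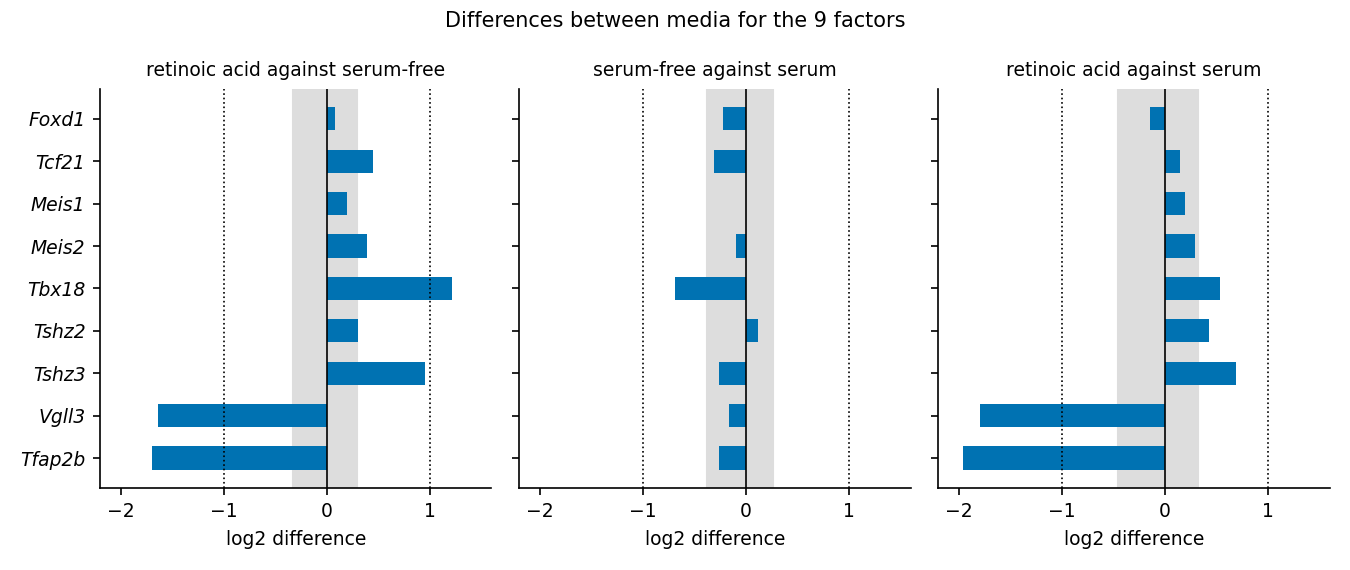
Log2 difference (horizontal axis) of each gene for the 3 comparisons, with the 5th to 95th percentile of all genes at or above the floor in grey and 2-fold as dotted lines. Vgll3 and Tfap2b pass 2-fold downward in both comparisons with retinoic acid, and Tbx18 passes it upward against serum-free only, at 1.22.

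Foxd1, the forkhead factor of stromal progenitors, was at 9.66 with serum, 9.43 serum-free and 9.51 with retinoic acid. All its values lay within 0.22 of each other, and the difference with retinoic acid against serum-free was 0.08. Tcf21, a basic helix-loop-helix factor of kidney mesenchyme that is also made in podocytes, was at 10.72 with serum, 10.41 serum-free and 10.86 with retinoic acid. Its serum-free value was the lowest, and the difference with retinoic acid was 0.45, which 6.44% of genes reached or passed in either direction. The podocyte marker Nphs1 was under the floor at 5.47 on all 3 arrays, and Wt1, which nephron progenitors also express, was at 10.85, 10.65 and 11.16 in the order serum, serum-free and retinoic acid.

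Meis1 was at 10.73 with serum, 10.73 serum-free and 10.92 with retinoic acid. The first pair of values was exactly equal, which was so for 45.4% of all genes and is no measure of equal expression, since median polish, the summary step of RMA, gives many ties between arrays. Meis2 was at 12.06 with serum, 11.97 serum-free and 12.36 with retinoic acid, a difference of 0.39 over serum-free. Both were highest with retinoic acid, at sizes well under 2-fold. Meis3 was at 8.78 in serum and 8.89 in both other media. Of their partners, Pbx3 was at 11.22 with serum, 11.13 serum-free and 11.42 with retinoic acid, and Pbx2 was at 10.54 on all 3 arrays.

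The retinoic acid array was the highest of the 3 for 6 of the 9 regulators, and for 14.6% of the 10241 genes that reached the floor on any array. The serum-free array was the lowest for 5 of the 9 and for 20.9% of those genes. The serum array was highest for the remaining 3, Foxd1, Vgll3 and Tfap2b, and for 41.1% of the genes.

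The second comparison asked which of these genes differed when serum was left out. Of the 9 regulators, 0 were at least 2-fold higher, where 0.876% of the 10156 genes that reached the floor were, and 0 were at least 2-fold lower, where 0.699% were. The difference was below 0 for 7, exactly 0 for Meis1 and above 0 for Tshz2 (0.12), and the median was -0.22 against -0.0041 over all genes at or above the floor. Of all such genes, 51.0% were below 0 and 19.5% above, so more genes lay below 0 in general. Differences of the 9 regulators ran from -0.68 for Tbx18 to 0.12, and Tcf21 was at -0.30. Apart from Tbx18, every regulator lay between the 5th and the 95th percentile of all genes.

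The third comparison set retinoic acid without serum against full serum, and it shares an array with each of the others. Here 0 of the 9 were at least 2-fold higher, where 1.04% of 10169 genes were, and 2 were at least 2-fold lower, Vgll3 and Tfap2b, where 0.816% were. The difference was above 0 for 6 and below 0 for 3, with a median of 0.19 against -0.0053 over all genes at or above the floor. Of all such genes, 21.2% were above 0 and 51.3% below. Besides Tshz3 and Tbx18, Tshz2 was at 0.43, Meis2 at 0.29 and Foxd1 at -0.14.

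Most relatives and cofactors of the 9 regulators were not called. Of 31 measured, 16 reached the floor, 0 were at least 2-fold higher and 1, Tfap2a, at least 2-fold lower with retinoic acid against serum-free, with a median of 0.00. In the other comparisons 0 of them were called, and between serum-free and serum the largest value was that of Foxc2, a forkhead gene of kidney mesenchyme, at -0.52. Tead1, which encodes a DNA-binding partner of vestigial-like proteins, was at 10.80 with serum, 10.74 serum-free and 10.76 with retinoic acid. Tead2 was at -0.07 and Vgll4 at 0.05 for retinoic acid against serum-free.

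Of 19 measured genes of stroma progenitors and cortical stroma, 2 were at least 2-fold higher and 0 lower with retinoic acid against serum-free. Of all genes at or above the floor, 1.05% were that much higher and 0.613% that much lower. The 2 genes were the matrix gene Ecm1 (5.34) and Rarb (2.95), both known to respond to retinoic acid in the stroma. The same genes were the 2 that were at least 2-fold lower in serum-free medium than in serum, Ecm1 at -2.82 and Rarb at -1.98. Medians of the list were 0.00 and 0.04 in these comparisons. Against serum, Ecm1 (2.52) was the 1 gene at least 2-fold higher with retinoic acid, and 0 were that much lower. Aldh1a2, which encodes the stromal enzyme that makes retinoic acid, was at 11.37 with serum, 11.50 serum-free and 10.54 with retinoic acid.

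Some signals and partners of the ureter mesenchyme were also higher with retinoic acid than in serum-free medium. Of 16 measured, 3 were at least 2-fold higher and 0 lower in that comparison, with a median of 0.28. They were the zinc finger factor genes Gata2 (1.14) and Gata6 (1.07) and the carbonic anhydrase gene Car3 (1.02). Of all genes at or above the floor, 1.05% were that much higher and 0.613% that much lower. In the list 10 were above 0 and 4 below, namely Foxf2 (-0.34), Axin2 (-0.10), Ptch1 (-0.07) and Gli1 (-0.04). For serum-free against serum the median was -0.23, with 1 gene at least 2-fold lower (Fhl2, a cofactor gene, at -1.13) and 1 at least 2-fold higher (Foxf2, at 1.59, from a serum value of 5.62 under the floor). Sox9, which acts in the ureter mesenchyme upstream of smooth muscle and also in the ureteric bud, was at 10.12 with serum, 9.63 serum-free and 10.40 with retinoic acid. Bmp4, a signal for smooth muscle formation, was at 10.72 with serum, 9.99 serum-free and 10.46 with retinoic acid.

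Of 14 genes of smooth muscle differentiation, 2 were called lower with retinoic acid against serum-free, Acta2 (-1.39) and Tagln (-1.32), and 0 were called higher. Of all genes at or above the floor, 0.613% were called lower and 1.05% higher. Actg2 (-1.40) and Cnn1 (-1.02) differed by at least 2-fold as well, with every value in that comparison below the floor, and were not called. Tpm2 (-0.95) and Myl9 (-0.65) were lower without reaching 2-fold, while Des and Mylk at -0.05 each and Smtn at 0.01 were near 0. Of the 14, 11 were below 0 in that comparison and 1 was above. Between serum-free and serum 5 were at least 2-fold lower, Cnn1 (-2.75), Actg2 (-2.18), Tagln (-1.91), Acta2 (-1.31) and Myl9 (-1.21), and the same 5 were lower with retinoic acid against serum. The list had medians of -0.36 with retinoic acid against serum-free, -0.27 on leaving out serum and -0.58 in the third comparison. Acta2 was at 12.42 with serum, 11.11 serum-free and 9.72 with retinoic acid, so it was lower at each step. Myocd, the coactivator gene of the smooth muscle programme, was under the floor on every array, at 6.69 with serum, 6.83 serum-free and 6.39 with retinoic acid. Srf, the gene of its partner factor, was at 9.63, 9.50 and 9.34 in the same order.

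**Figure D3:**
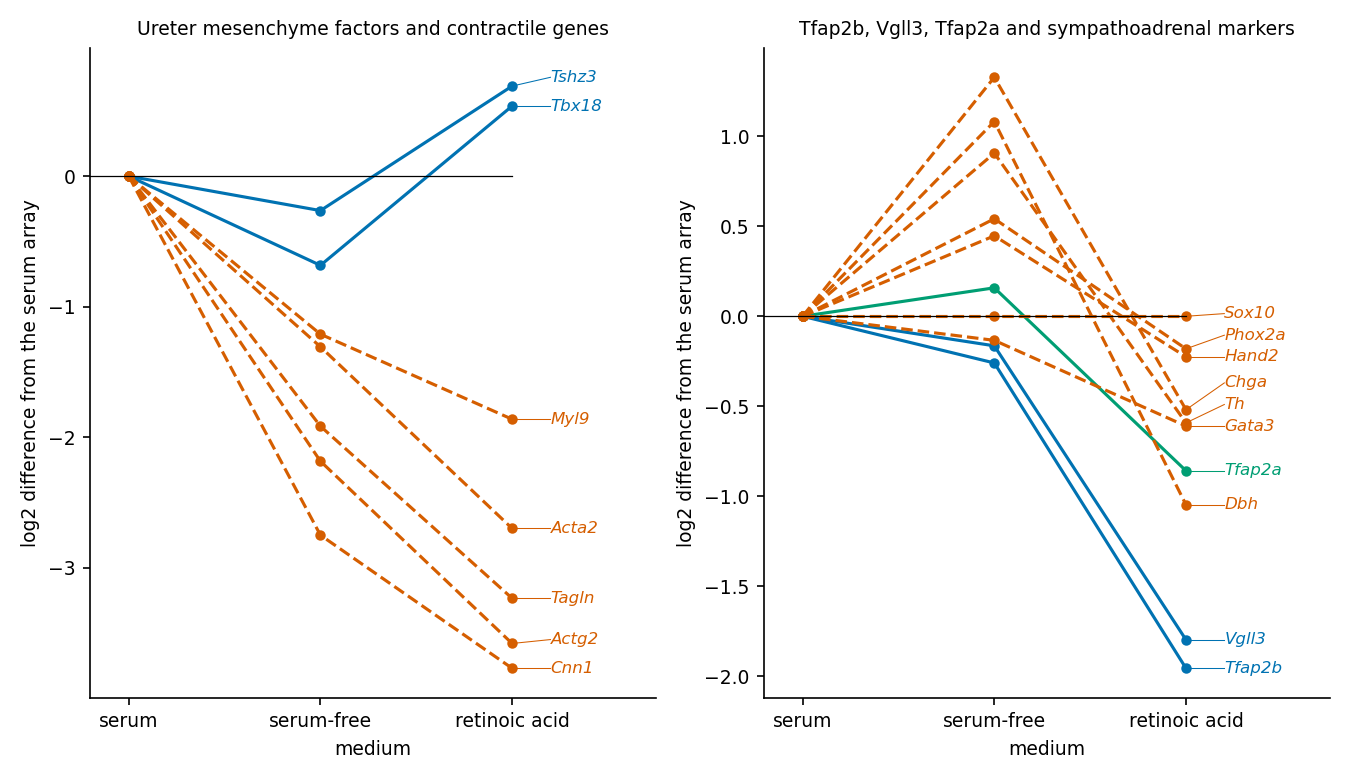
Log2 difference from the serum array (vertical axis) in the 3 media (horizontal axis), 1 array each, for Tbx18 and Tshz3 with the 5 contractile genes at least 2-fold lower in serum-free medium than in serum (left) and for Tfap2b, Vgll3, Tfap2a and the 7 measured sympathoadrenal and neural crest markers (right). With retinoic acid Tbx18 and Tshz3 end at 0.54 and 0.69 above serum while Acta2 ends at -2.70, and in serum-free medium Dbh and Chga stand above Tfap2b.

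Genes with the most similar values over the 3 arrays were found for each regulator that differed by 2-fold, by the distance between log2 values centred on each gene's mean. Over only 3 arrays many genes can share a pattern. The nearest to Tbx18 were Pth1r (distance 0.013), which encodes the parathyroid hormone receptor, Plat (0.031), which encodes tissue plasminogen activator, and Rpp25 (0.057), a gene of a ribonuclease P subunit. Pth1r was at 8.82 with serum, 8.12 serum-free and 9.34 with retinoic acid. Within a distance of 0.25 there were 34 other genes for Tbx18, 4 for Vgll3 and 2 for Tfap2b.

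Vgll3 and Tfap2b were each other's nearest gene, at a distance of 0.11. Next for both was Vcam1, an adhesion molecule gene, at 0.12 from Vgll3 and 0.22 from Tfap2b, with levels of 7.88 with serum, 7.88 serum-free and 6.21 with retinoic acid. The third was Emp1, a membrane protein gene, at 0.23 and 0.33, with levels of 10.44, 10.57 and 8.91 in the same order. Emp1 stayed well above the floor on all 3 arrays, while Vcam1, Vgll3 and Tfap2b ended under it with retinoic acid.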

How the data were processed

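Total RNA (250 ng per array) from kidney explants in 3 media was measured on 1 array each, per the labels' protocols. The deposited file holds linear intensities of probe sets, between 3.84 and 17250. The authors made them with Affymetrix Expression Console 1.1 and RMA, per the submitters' processing notes, with settings not given in the sources used here. RMA subtracts background, equalises the arrays by quantiles and summarises probes by median polish, which returns many exact ties and can understate small differences.

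Log2 of the values was used as it is, without pseudocount. The file has 35556 probe sets, of which 21789 are annotated to 1 symbol alone and gave 19938 genes. Probe sets with several symbols (1621) or no name in the annotation table used here (12146) were left out. The gene identifiers of 9 of 9 members matched RefSeq. Differences were called by size alone (2-fold, floor 7.12), and the rule was tested on simulated data. Levels of different genes were ranked within each array, but these ranks are not given, because probes differ in brightness. The floor and the marker sums still depend on that brightness. Named genes were all members, the list genes called in a comparison or otherwise up to 3 with the largest differences, and the 3 nearest genes of each called member. Other list genes were named after their values were seen, to show known partners. The distance of 0.25 was likewise chosen after the values were seen. The members and lists were chosen with earlier results of these data known. Marker sums without Acta2, without Gata3 and without the members were added after seeing the data. Alternatives were 32 added to the intensities, arrays centred on medians, cyclic loess (limma 3.58.1), mean of probe sets, other floors and a 1.5-fold size. Python 3.11.15 and pandas 2.3.3 were used.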

Additional observations from a re-analysis of the deposited data

How the results depend on the processing

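With 1 array per medium there is no replicate to leave out, and the number of arrays limits the precision. No paired analysis was possible because each medium has a single array. The size rule and floor set several counts. With the floor at the 75th percentile of gene-level values (8.91), 0 regulators were counted as at least 2-fold lower with retinoic acid against serum-free or against serum, since Vgll3 and Tfap2b lie under that floor on every array. Of all genes that reached that floor, 1.59% and 1.65% were at least 2-fold higher or lower in these comparisons. At 1.5-fold, 2 were higher with retinoic acid against serum-free (Tbx18 and Tshz3), 1 was lower in serum-free medium than in serum (Tbx18) and 1 was higher with retinoic acid against serum (Tshz3). The share of all genes at 1.5-fold was not counted, so these counts cannot be set against it. Under 32 added to the intensities, median centring, cyclic loess and the mean of probe sets, all counts of regulators at 2-fold were those of the main setting. The median difference of the 9 ranged from 0.19 to 0.32 for retinoic acid against serum-free, from -0.22 to -0.20 for serum-free against serum and from 0.19 to 0.22 for retinoic acid against serum. Of the 27 single differences, 26 moved by no more than the 95th percentile of disagreement between probe sets of 1 gene (0.27, 0.28 and 0.33 in the 3 comparisons) with 32 added, and 27 under each of the other 3. The 1 that moved further was Tfap2b for retinoic acid against serum-free, from -1.70 to -1.42, which is the largest difference in that comparison. The exact tie of Meis1 between serum and serum-free became a difference just off 0 under both rescalings.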

Other observations

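Fat4 and Dchs1 encode protocadherins that bind each other and were listed with the stroma genes. Both were higher at each step from serum to serum-free to retinoic acid, as Tshz2 was. Dchs1 is named after its values were seen. Fat4 was at 9.53 with serum, 9.93 serum-free and 10.45 with retinoic acid, and Dchs1 at 9.23, 9.60 and 10.09 in the same order. From serum to retinoic acid the differences were 0.92 and 0.86. Pdgfrb, a receptor gene of stromal cells, was at 10.97, 11.06 and 10.38, and Cxcl12, a stromal chemokine gene, at 10.26, 9.78 and 9.41. Pdgfra was at 10.31, 10.35 and 10.43.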
